A study of Mus musculus with 13 samples.

Results

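The clustered protocadherin genes lie side by side on mouse chromosome 18 and are named Pcdha, Pcdhb and Pcdhg for the alpha, beta and gamma subclusters. All protein-coding genes of the RefSeq table whose symbols start with these names were taken, which gave 57 of 21900 genes. There were 14 alpha, 22 beta and 21 gamma genes. They spanned 911.59 kb of build mm10, from 36930285 to 37841873, and the peaks of 200 kb on each side were read as flanks. Binding was described by separate sites and not by genes, because alpha and gamma genes share their 3′ ends.

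Protocadherins are cadherin-like adhesion proteins that neurons use to tell their own processes from those of other cells. In the alpha and gamma subclusters each gene has its own promoter and a large variable first exon, which encodes the outer part of the protein, and splicing joins it to constant exons at the shared end. Beta genes have a single coding exon and no constant part. In neurons, CTCF binds at most of these promoters and cohesin loops from distant enhancers reach them, which is linked to the choice of a few promoters per cell. The C-type genes Pcdhac1, Pcdhac2, Pcdhgc3, Pcdhgc4 and Pcdhgc5 stand last in their subclusters and are chosen less randomly.

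Chromatin immunoprecipitation with sequencing was done on NU1, a wild-type line of normal mouse urothelium that became immortal through passaging. STAG1, STAG2 and CTCF were each precipitated from proliferating and from quiescent cultures, with 2 biological replicates per group, which makes 6 groups and 12 libraries. Cohesin, the ring that forms DNA loops, carries either STAG1 or STAG2, and CTCF is the DNA-binding protein at which cohesin often halts. Proliferating cells grew in complete medium, and quiescent cells were kept at confluence with 1 uM rosiglitazone, an activator of PPAR gamma, and 0.5 uM erlotinib, an inhibitor of the EGF receptor, so that state, confluence and drugs cannot be told apart. The labels give 25 ug of antibody for 550 ug of chromatin, and a further sample titled input and labelled as an IgG precipitation was not analysed here.

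The lists held between 34281 and 71757 peaks, and their read depth is unknown. A list cannot tell a site bound in few cells from a site bound weakly in many. All cells came from a single line, and the labels do not say what separated the biological replicates, so p-values measure the spread between these libraries. Peaks do not measure expression, so the cell type was not checked. Of 10 urothelial marker genes 8, and of 6 neuronal marker genes 6, had a peak near the start in at least 1 library, against 67.0% of other protein-coding genes. For 4 of the urothelial and 1 of the neuronal genes the strand was not known, and both ends were counted. The 67.0% counts the start alone, in genes with a known strand.

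Few cohesin peaks were called at the alpha and beta genes, and most first-exon sites lay in the gamma subcluster. The alpha, beta and gamma genes each include close copies, and whether reads that fit several copies were kept is not known, so a missing peak does not show that a first exon was unbound. A first-exon window was taken from 1 kb before to 2.5 kb after the start of each gene. Of the 57 windows 30 held a peak in at least 1 library against 67.0% of the other 17492 genes with a known strand, and 3 held a peak in all 12 libraries, against 35.5% of those genes. Among alpha genes 9 of 14, among beta genes 4 of 22 and among gamma genes 17 of 21 had a peak in any library. Without CTCF proliferating replicate 2, a library that called 11 of the 52 sites of the cluster by itself, these numbers were 4, 2 and 17. The setting without this library was chosen after seeing the data.

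**Figure D1:**
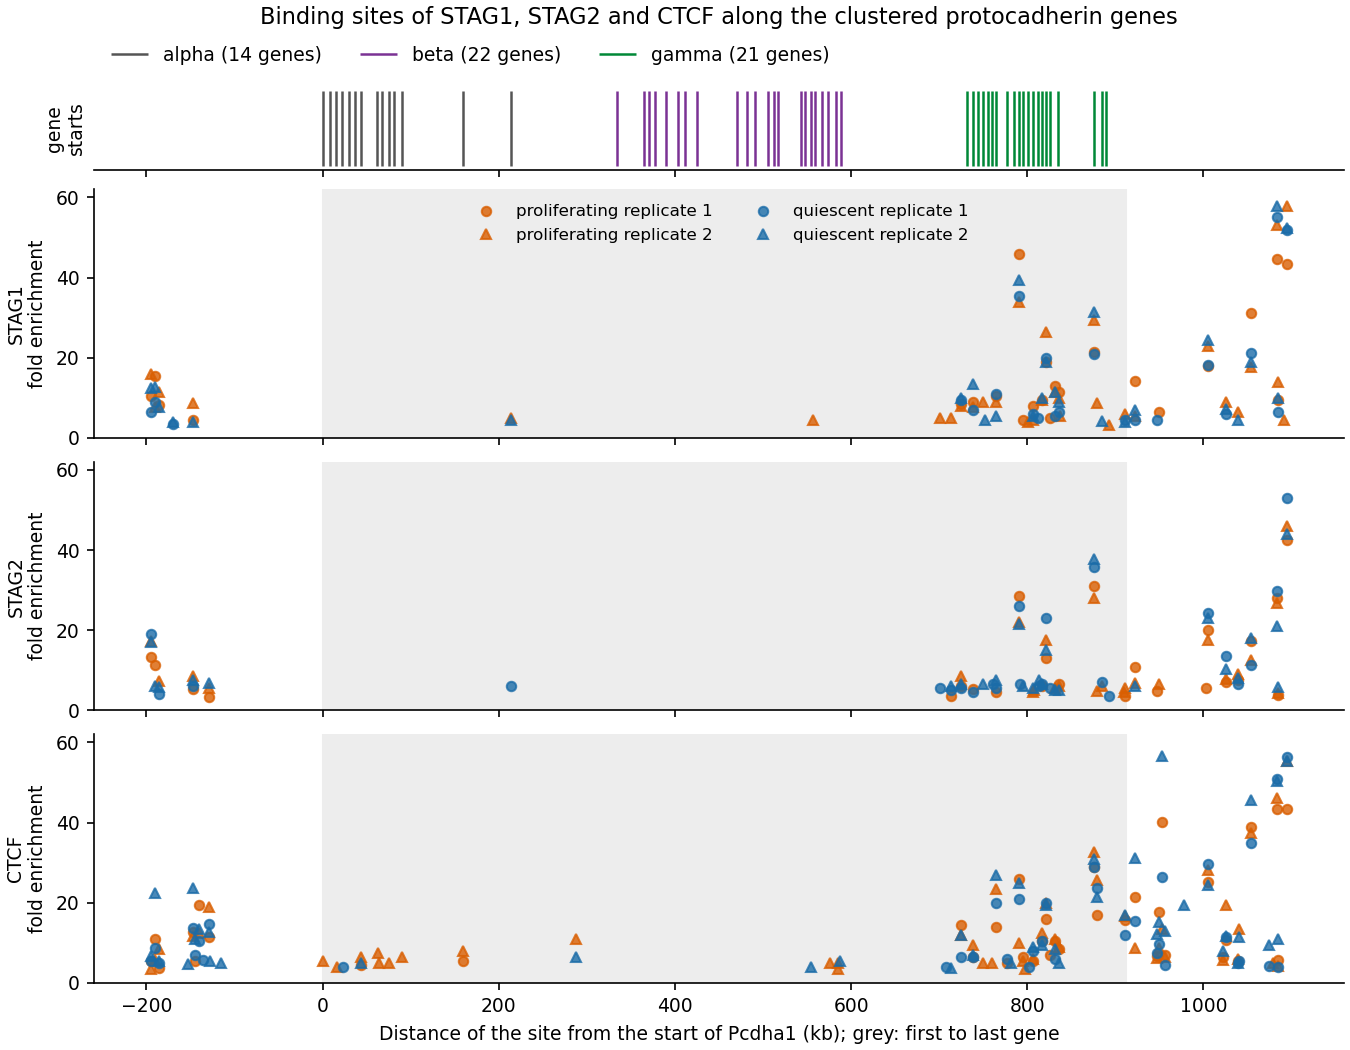
Fold enrichment of each site in each library (vertical axes, 1 panel per protein) against the distance of the site from the start of Pcdha1 in kb; the top track marks the starts of the genes, and grey marks the stretch from the first to the last gene. The alpha and beta genes carry few and weak sites, while the gamma genes and the downstream flank carry sites with fold enrichments above 20.

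STAG1 was called at 3.57% ± 4.12 (SD, n = 4 libraries) of the alpha first exons, 1.14% ± 2.27 of the beta and 45.2% ± 4.76 of the gamma first exons. For STAG2 the shares were 1.79% ± 3.57 of alpha, 0% of beta in all 4 libraries and 40.5% ± 11.3 of gamma. CTCF was called at 19.6% ± 20.5 of alpha, 4.55% ± 5.25 of beta and 46.4% ± 7.14 of gamma first exons. In each of the 12 libraries the gamma share lay above the alpha and the beta share. The same window held a peak in 48.3% to 59.6% of other genes, depending on the library. The spread of the CTCF share in alpha came from replicate 2 of the proliferating cells, which had a peak at 7 of 14 first exons against 1 or 2 in the other CTCF libraries.

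**Figure D2:**
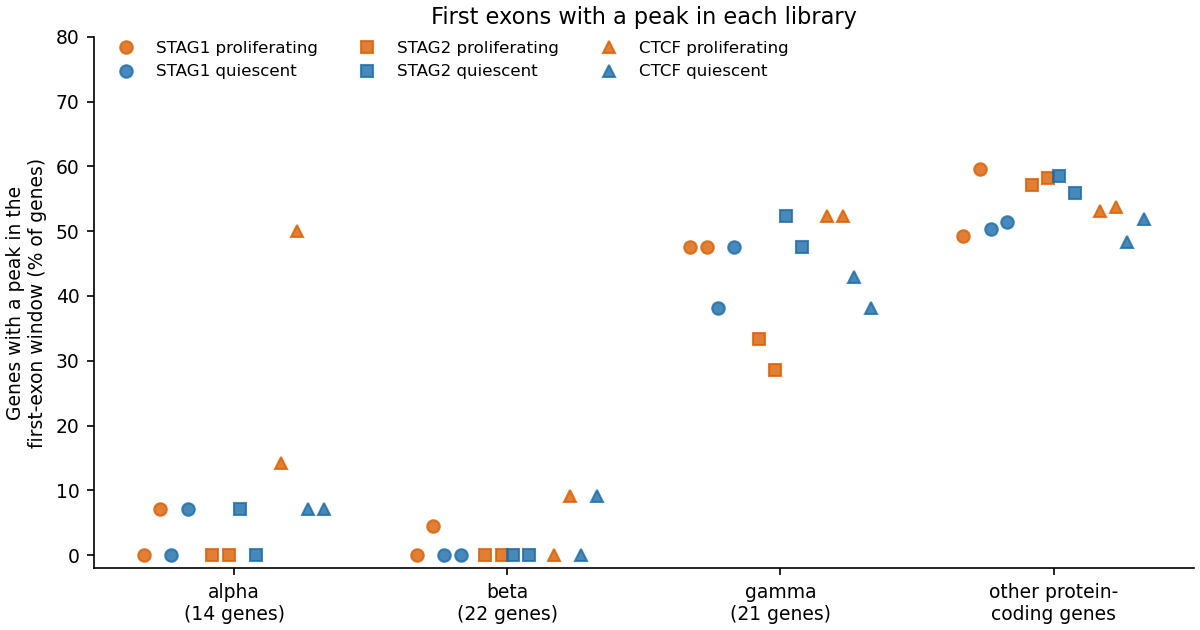
Percentage of genes with a peak in the first-exon window (vertical axis) for alpha, beta, gamma and the other 17492 protein-coding genes with a known strand. Each point is 1 library, with the shape giving the protein and the colour the state. Gamma points lie between 28.6% and 52.4%, and all but 1 of the alpha points lie at or below 14.3%.

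Counted over groups, no beta gene had a peak in both libraries of any group, and 2 alpha genes did, both for CTCF in proliferating cells. In proliferating cells both STAG1 libraries had a peak at 8 of 57 first exons, 14.0% against a background of 48.5% of other genes. For STAG2 it was 4, 7.02% against 54.7%, and for CTCF 11, 19.3% against 49.2%. In quiescent cells the numbers were 7 for STAG1, 12.3% against 46.5%, 6 for STAG2, 10.5% against 54.5%, and 7 for CTCF, 12.3% against 45.4%. Within the gamma subcluster the shares were higher, 38.1%, 19.0% and 42.9% for STAG1, STAG2 and CTCF of proliferating cells and 33.3%, 28.6% and 33.3% for the same proteins of quiescent cells. All of these gamma shares lay below the share of other genes.

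Of the alpha genes, which neurons are known to choose at random except for the C-type genes, 8 showed CTCF and none of those 8 showed STAG1 or STAG2. The site at Pcdha7, from 36974067 to 36974646, was called in 3 CTCF libraries, with fold enrichments of 4.49 and 6.49 in proliferating and 4.99 in 1 quiescent library. Pcdha1, Pcdha3, Pcdha8, Pcdha10 and Pcdha12 were called in CTCF proliferating replicate 2 alone, with folds from 3.99 to 7.48, and Pcdha4 in CTCF quiescent replicate 1 alone. In Pcdha1 to Pcdha12 the summits lay between 212 and 557 bp past the annotated start, and Pcdha8 had a further site at 2187 bp.

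The C-type genes of the alpha subcluster differed from each other. Pcdhac1 had CTCF in both proliferating libraries, with folds of 5.49 and 7.98, and in no quiescent library, and no STAG peak was called there. At Pcdhac2, a C-type gene with a known role in the spacing of serotonergic axons, STAG1 was called with folds of 4.99 and 4.49 in replicate 2 of both states, STAG2 with 5.99 in quiescent replicate 1, and CTCF in no library. Its summit lay 242 bp past the start. At the shared alpha end and between Pcdhac2 and that end no peak was called in any of the 12 libraries.

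Some 30.7 kb past the shared alpha end, between the alpha and beta genes, a site from 37218136 to 37218613 was called for CTCF in replicate 2 of both states, with folds of 11.0 and 6.49, and for no STAG. In neurons an enhancer of the alpha genes lies downstream of their constant exons. Whether this site is that enhancer was not tested. The stretch that follows was the longest without a site in the cluster, 266.2 kb from 37218614 to 37484786. It holds 16 of the 22 beta genes, Pcdhb1 included, the beta gene whose promoter is known to lack the sequence element common to the others.

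The 6 sites at beta genes were each called in 1 library. Pcdhb17 had a CTCF site 87 bp before its start and a STAG1 site 1863 bp past it, in different libraries, with folds of 3.99 and 4.49. Pcdhb20, Pcdhb21 and Pcdhb22 had CTCF sites with folds from 3.49 to 5.49. No beta gene had STAG2. Beta genes resemble each other in sequence, and the part of shared reads in the missing peaks was not tested.

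The gamma genes carried 27 of the 43 first-exon sites of the cluster, and 8 of these were called in at least 9 libraries. They lay at Pcdhga2, Pcdhga5, Pcdhga9, Pcdhga10, Pcdhga12, Pcdhgb4, Pcdhgb7 and Pcdhgc3. The summits of these 8 sites lay between 86 bp before and 357 bp past the start, with a median of 38 bp past it. Over the whole cluster 11 sites were called in at least 9 libraries, 21.2% of 52, and all 11 lay past the last beta gene. Genome-wide 24.0% of 114651 sites were called that often. The cluster had fewer sites of all 12 libraries, 4 or 7.69% against 15.9%, and more of a single library, 27 or 51.9% against 32.9%. CTCF proliferating replicate 2 alone called 11 of these 27.

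**Figure D3:**
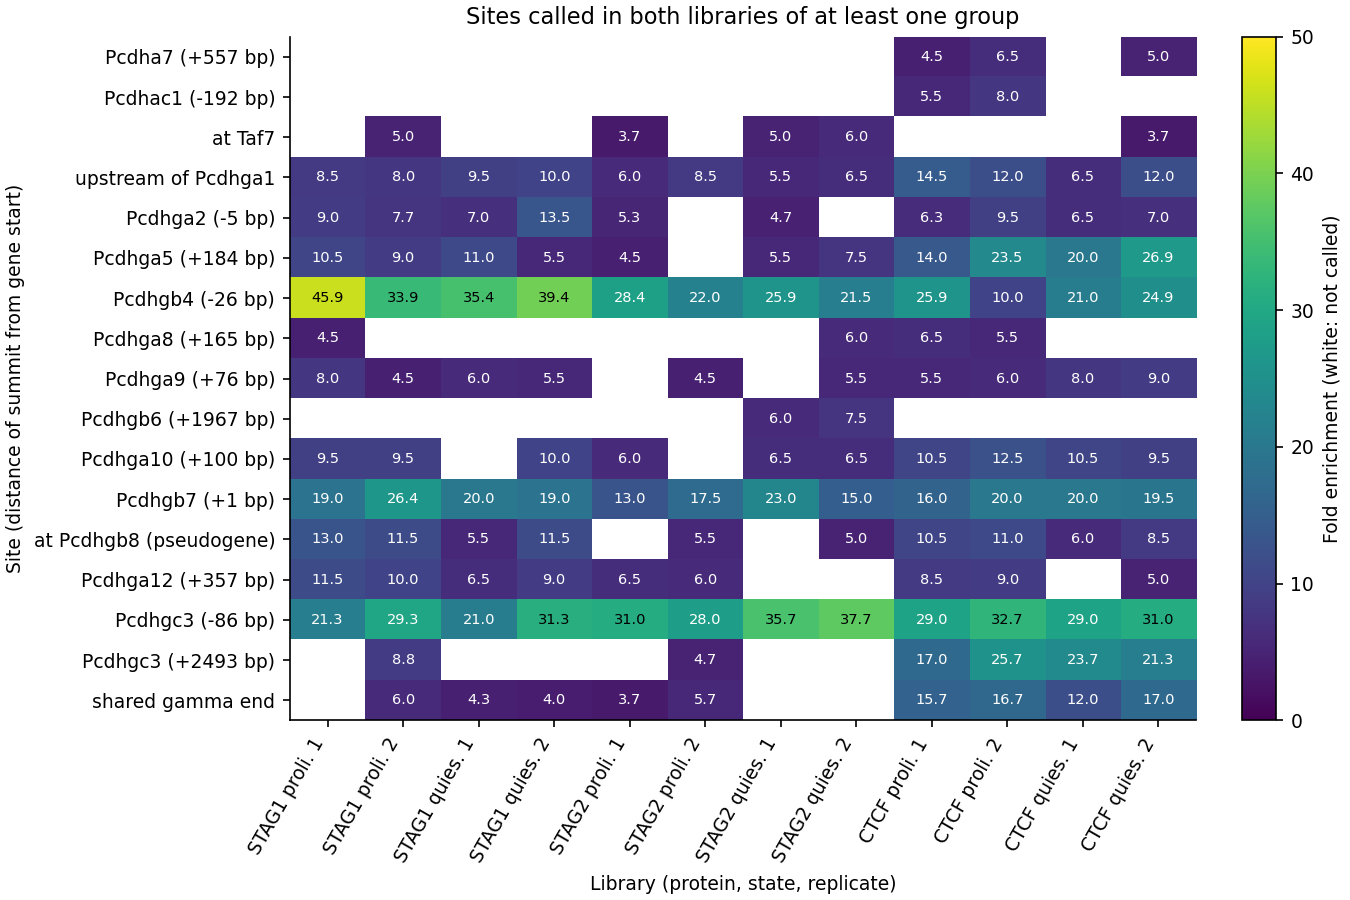
Fold enrichment (colour and number) of the 17 sites from the first to the last gene that were called in both libraries of at least 1 group (rows, with the distance of the summit from the gene start) in each of the 12 libraries (columns); white cells were not called. Pcdhgb4, Pcdhgb7, Pcdhgc3 and the site upstream of Pcdhga1 are filled in every library.

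Among the 52 sites from the first to the last gene, that of Pcdhgc3, a C-type gene, had the highest mean percentile of fold enrichment over the 12 libraries, 90.1, where the percentile ranks a peak among all peaks of its own library and a library without a call counts as 0. The site ran from 37805982 to 37807694, with its summit 86 bp before the start. Its STAG1 folds were 21.3 and 29.3 in proliferating and 21.0 and 31.3 in quiescent cells, and its STAG2 folds were 31.0 and 28.0, then 35.7 and 37.7. Its CTCF folds were 29.0, 32.7, 29.0 and 31.0. Folds are the values of the authors' peak caller and are not compared between libraries at this site. Its percentiles lay between 81.7 and 95.8 in all 12 libraries.

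Pcdhgb4 was next, with a mean percentile of 87.2. It lay from 37720037 to 37720919, with the summit 26 bp before the start. STAG1 had folds of 45.9 and 33.9 in proliferating and 35.4 and 39.4 in quiescent cells. STAG2 had 28.4, 22.0, 25.9 and 21.5 in the same order. CTCF had 25.9, 9.98, 21.0 and 24.9, and the low value was that of proliferating replicate 2. In that library the site was at percentile 61.7, against 83.2 to 86.3 in the other CTCF libraries and 83.5 to 96.8 in the STAG libraries.

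Pcdhgb7, from 37751277 to 37752111, had its summit 1 bp past the start and a mean percentile of 79.8. STAG1 folds were 19.0, 26.4, 20.0 and 19.0, STAG2 folds 13.0, 17.5, 23.0 and 15.0 and CTCF folds 16.0, 20.0, 20.0 and 19.5, with the 2 proliferating libraries first. Its percentiles ran from 71.0 to 89.7 and overlapped between the 3 proteins. Pcdhga5 (37694053 to 37695031) was called in 11 libraries and differed from these 3 in its balance of proteins. Its CTCF folds of 14.0, 23.5, 20.0 and 26.9 stood at percentiles 70.0 to 88.1, its STAG1 folds of 10.5, 8.98, 11.0 and 5.49 at 21.7 to 63.9, and its STAG2 folds of 4.49, 5.49 and 7.48 at 11.8 to 32.4. STAG2 was not called there in proliferating replicate 2.

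Of the weaker gamma sites, Pcdhga10 (37746666 to 37747954) was called in 10 libraries. Its STAG1 folds were 9.48 and 9.48 in proliferating cells and 9.98 in quiescent replicate 2, its STAG2 folds 5.99 in proliferating replicate 1 and 6.49 and 6.49 in quiescent cells, and its CTCF folds 10.5, 12.5, 10.5 and 9.48. Pcdhga2 (37668652 to 37669357) was called in 10 and lacked STAG2 in replicate 2 of both states. It had STAG1 folds of 8.98, 7.67, 7.00 and 13.5, STAG2 folds of 5.34 and 4.67 in replicate 1 of the 2 states, and CTCF folds of 6.33, 9.48, 6.49 and 6.99. In the lists that called them, Pcdhga10 stood at percentiles 22.4 to 69.5 and Pcdhga2 at 8.16 to 69.1, with STAG2 lowest at both. Pcdhga9 (37736613 to 37737435) was called in 10, with folds from 4.49 to 8.98. Pcdhga12 (37765680 to 37766220) was called in 9, with STAG1 folds of 11.5, 9.98, 6.49 and 8.98, STAG2 folds of 6.49 and 5.99 in proliferating cells, and CTCF folds of 8.48 and 8.98 in proliferating cells and 4.99 in quiescent replicate 2. All 4 STAG1 libraries called these sites of Pcdhga2, Pcdhga9 and Pcdhga12, and 2 of the 4 STAG2 libraries called each. In the same Pcdhga12 window a separate site, from 37766567 to 37766896, was called for STAG2 in quiescent replicate 2 with a fold of 4.99. No peak was called in any library for 4 gamma genes, Pcdhga1, Pcdhga3, Pcdhga4 and Pcdhga7.

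By type, 8 of 12 Pcdhga, 6 of 6 Pcdhgb and 3 of 3 Pcdhgc genes had a peak in at least 1 library, against 67.0% of other genes. In at least 9 libraries it was 5, 2 and 1 genes, and the share of other genes was not counted for this cut. Pcdhgc4, the gamma gene on which the survival of interneurons is known to depend, had a site 364 bp past its start in STAG1 quiescent replicate 2, STAG2 proliferating replicate 2 and STAG2 quiescent replicate 1, with folds of 4.31, 5.99 and 6.99, and no CTCF. Past Pcdhgc5 a site with its summit 2984 bp from the start, beyond the window, was called in 1 STAG1 and 1 STAG2 library. Its folds were 3.20 and 3.67, at percentiles 0.57 and 1.45 of these lists. Only the STAG2 peak reached into the window, and no CTCF was called. Pcdhgc4, Pcdhgc5 and Pcdhac2 are known to lack the promoter element of the other genes. In their first-exon windows Pcdhac2 and Pcdhgc4 had STAG peaks in 3 libraries each and Pcdhgc5 in 1, with CTCF in none. This pattern was not particular to them. Pcdhgb6 had STAG peaks in 3 libraries and no CTCF, and 27 of the 57 genes had no peak of any protein.

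Late sites, far past the gene start, were called in few libraries. The ends of the exons were not read, so whether these sites lie in the first exon is not known. Of 9 gamma sites with a summit 1500 bp or more past the start, 8 were called in at most 2 libraries and 6 had no CTCF peak. Among them were Pcdhgb1 at 2078 bp, Pcdhgb2 at 1879 bp, Pcdhgb4 at 2028 bp and Pcdhgb6 at 1967 bp. The Pcdhgb2 and Pcdhgb4 sites had STAG2 in quiescent replicate 1, the Pcdhgb6 site had it in both quiescent libraries, and the Pcdhgb1 site had STAG1 in quiescent replicate 2. Pcdhgb genes resemble each other, so reads of one may have been placed on another, which was not tested.

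The exception with many libraries was a second site at Pcdhgc3, from 37808509 to 37809190, with its summit 2493 bp past the start. CTCF was called there in all 4 libraries with folds of 17.0, 25.7, 23.7 and 21.3, at percentiles 75.5 to 86.3. STAG was called in 2 of 8 libraries, STAG1 with 8.76 and STAG2 with 4.74, both in proliferating replicate 2. At the first Pcdhgc3 site all 8 STAG libraries had a peak.

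At the shared gamma end a single site was called, from 37841079 to 37841887, with its summit 411 bp before the last base of the genes. CTCF was called in all 4 libraries with folds of 15.7, 16.7, 12.0 and 17.0, at percentiles 69.3 to 77.5. STAG1 was called in 3 libraries with folds of 6.0, 4.33 and 4.00. STAG2 was called in both proliferating libraries with folds of 3.67 and 5.67 and in no quiescent one. So of the 2 shared ends, the gamma end had a CTCF peak in each of the 4 CTCF libraries. At the alpha end no peak was called in any library, which does not show that it was unbound.

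Outside the first exons and shared ends the cluster held 8 sites. The strongest, from 37655361 to 37655943, lay 6.15 kb before Pcdhga1 and was called in all 12 libraries, with a mean percentile of 49.2. Its folds were 7.98 to 9.98 for STAG1, 5.49 to 8.48 for STAG2 and 6.49 to 14.5 for CTCF. The next, from 37761396 to 37762111, was called in 10 libraries and lay with its summit 58 bp before the start of Pcdhgb8, a transcribed pseudogene of the gamma subcluster that is not among the 57 genes. A site at Taf7, an intronless gene of a TFIID subunit between the beta and gamma genes, had STAG2 in 3, STAG1 in 1 and CTCF in 1 library. Another, from 37630723 to 37631099, had STAG1 and STAG2 in 1 library each, and the other 3 sites were called in 1 library each.

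Separate sites were counted per library from the first to the last gene. A change between the states, averaged over the 3 proteins, was not shown beyond the spread of the replicates. STAG1 had 12 and 20 sites in proliferating and 11 and 14 in quiescent cells, and CTCF had 17 and 28, then 15 and 18. These groups overlapped. STAG2 had 10 and 12 sites in proliferating and 16 and 13 in quiescent cells, which did not overlap. The log2 change was -0.36 for STAG1, 0.40 for STAG2 and -0.45 for CTCF. The mean over the 3 proteins was -0.14 (exact permutation p = 0.565, two-sided, 216 arrangements). The states were exchanged separately for each protein, although replicate numbers pair libraries across proteins within a state, so this p treats the proteins as independent. Changes of opposite sign cancel in this mean, so it does not speak for any single protein. No protein was tested alone, since 2 libraries against 2 leave too few arrangements. The mean turned to 0.0033 without STAG1 proliferating replicate 2.

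**Figure D4:**
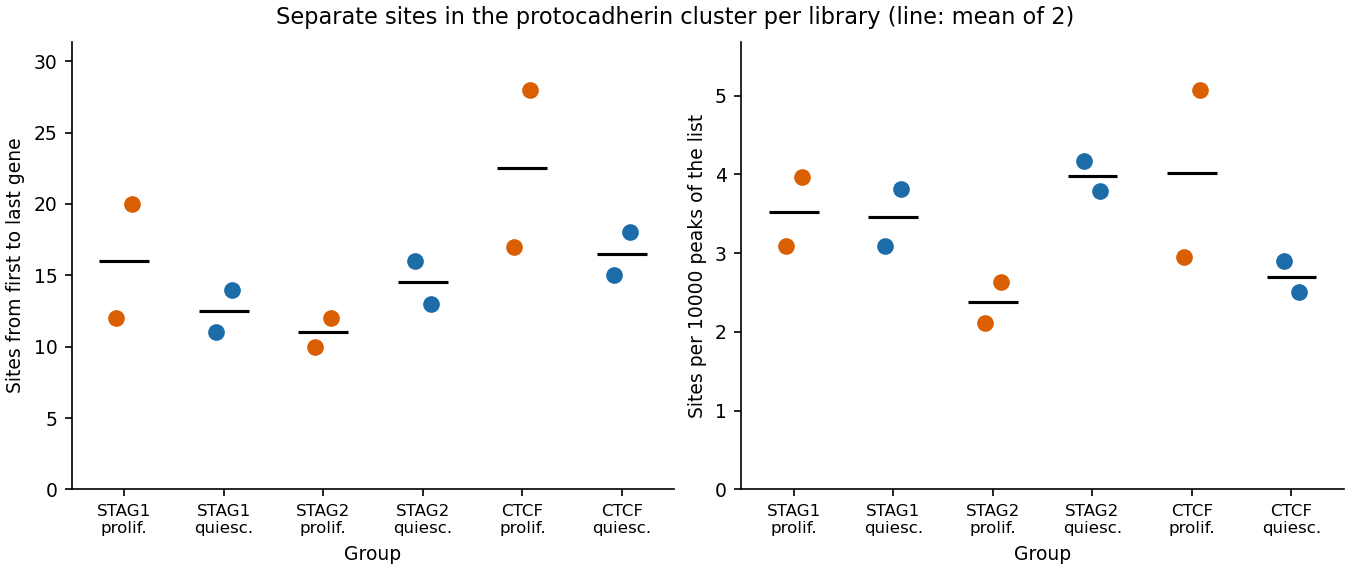
Separate sites from the first to the last clustered protocadherin gene (left, count) and the same per 10000 peaks of the list (right) for the 6 groups; each point is 1 library, and the line is the mean of 2. STAG2 has 10 and 12 sites in proliferating and 13 and 16 in quiescent cells, while the other 2 proteins overlap between states on the left. On the right STAG2 is higher and CTCF lower in quiescent cells, both without overlap.

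The STAG2 lists as a whole were shorter in quiescent cells, 38407 and 34281 peaks against 47295 and 45582. Per 10000 peaks, STAG2 had 2.11 and 2.63 cluster sites in proliferating and 4.17 and 3.79 in quiescent cells. By this measure CTCF did not overlap either, in the opposite direction, with 2.955 and 5.075, then 2.894 and 2.508. STAG1 overlapped, with 3.088 and 3.963, then 3.09 and 3.817. Of the STAG2 sites in the cluster, 26 had a peak in any library and 4, or 15.4%, in all 4, against 45.3% of STAG2 sites genome-wide. For STAG1 the share was 9 of 25 against 43.0%, and for CTCF 11 of 37, 29.7% against 42.4%. When every list was cut to its 20000 peaks of highest fold, STAG2 had 3 and 4 cluster sites in proliferating and 3 and 3 in quiescent cells, which overlapped.

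Few sites were lost or gained as a whole. Loss means a peak in both proliferating libraries of a protein with none in its quiescent libraries, and gain means the opposite. STAG2 lost 2 of the 6 sites of both proliferating libraries, the first-exon site of Pcdhga12 and the shared gamma end, against 10.3% lost genome-wide. The Pcdhga12 window as a whole still held a STAG2 peak in quiescent replicate 2, at the separate site. STAG2 gained 1 of the 8 sites of both quiescent libraries, the late one in Pcdhgb6 with folds of 5.99 and 7.48, against 1.97%. CTCF lost 2 of 15, at Pcdhac1 and Pcdhga8, against 4.7%, and gained 0 of 11, against 7.64%. STAG1 lost 0 of 10, against 7.86%, and gained 0 of 10, against 1.3%. These counts are small and no test was made. Leaving out single libraries moved them, the most for CTCF without proliferating replicate 1, where 14 sites counted as lost.

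The lost sites differed in rank within the lists that called them. Pcdhac1 stood at percentiles 24.1 and 51.3 of the proliferating CTCF lists and Pcdhga8 at 35.97 and 26.4, while the shared gamma end stood at 2.92 and 36.9 of the proliferating STAG2 lists. At Pcdhga12 the STAG2 folds were 6.49 and 5.99 in proliferating cells, and STAG1 was still called in both quiescent libraries, with folds of 6.49 and 8.98. At Pcdhga8 (37725574 to 37726198) the CTCF folds were 6.49 and 5.49, with STAG1 called once in proliferating and STAG2 once in quiescent cells. Each lost STAG2 site therefore kept a STAG1 peak in quiescent cells, and these 2 sites were also the 2 with STAG1 in both and STAG2 in no quiescent library, out of 10 against 7.42% genome-wide. The reverse, STAG2 in both and STAG1 in neither quiescent library, was seen for 2 of 8 sites, at Pcdhgb6 and Taf7, against 8.13%. In proliferating cells no cluster site was of either kind, against 4.87% and 6.17%.

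A difference between STAG1 and STAG2 in the number of sites was not shown. The mean log2 ratio of STAG2 to STAG1 over the 2 states was -0.16 (exact permutation p = 0.667, two-sided, 36 arrangements), and the smallest p of this design is 0.0556, so it could not reach 0.05. Without STAG1 proliferating replicate 2 the ratio was 0.044. With 20000 peaks in every list STAG1 had 9, 6, 5 and 8 sites and STAG2 had 3, 4, 3 and 3. That ratio was -1.11 on the log2 scale with the smallest p the design allows (exact permutation p = 0.0556), and all 4 STAG1 libraries lay above all 4 STAG2 libraries.

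Among the cluster sites called in a library, the median percentile of fold was 42.5 to 56.3 in the STAG1 libraries, 22.4 to 38.2 in the STAG2 libraries and 43.4 to 60.7 in the CTCF libraries. All 4 STAG2 values lay below all STAG1 and CTCF values. These lists differ in length. Sites called in all 8 STAG libraries were therefore also ranked by fold among the 21665 such sites of the genome, a measure chosen after seeing the data.

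By that rank, the cluster sites split. At Pcdhgb4 the STAG1 ranks were at percentiles 94.4, 85.5, 88.8 and 89.3 and the STAG2 ranks at 82.6, 81.6, 75.8 and 74.3, without overlap. At Pcdhgc3 it was the reverse, with 68.6, 80.3, 72.4 and 82.8 for STAG1 and 85.8, 89.8, 87.7 and 93.4 for STAG2. At Pcdhgb7 and at the site before Pcdhga1 the ranks of STAG1 and STAG2 overlapped. Genome-wide, all STAG1 ranks lay above all STAG2 ranks at 12.8% of these sites, and the reverse held at 11.2%, so 1 site of each kind among 4 is no finding about the cluster.

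**Figure D5:**
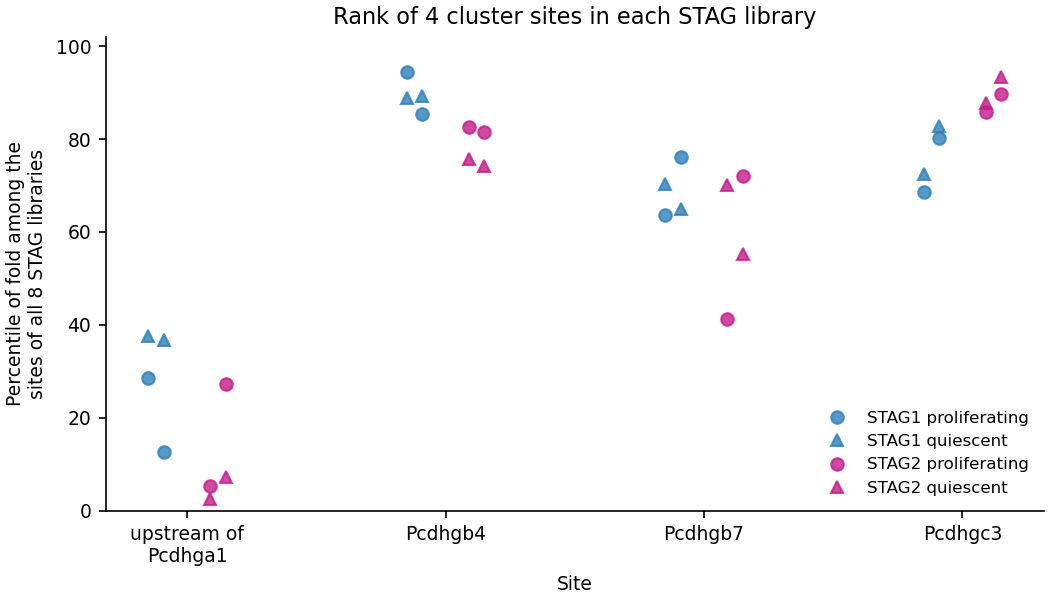
Percentile of the fold enrichment (vertical axis) among the 21665 sites shared by all 8 STAG libraries, for the 4 such sites of the cluster; each point is 1 library, with the colour giving the protein and the shape the state. STAG1 lies above STAG2 at Pcdhgb4 and below it at Pcdhgc3, and the other 2 sites overlap.

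The STAG libraries had fewer cluster sites than the CTCF libraries, but the difference did not pass the threshold of 0.05. The mean log2 ratio of STAG to CTCF was -0.51 (exact permutation p = 0.0622, two-sided, 225 arrangements). It passed without STAG1 proliferating replicate 2 (-0.64, exact permutation p = 0.0133) or STAG2 quiescent replicate 1 (-0.56, exact permutation p = 0.04). With any other STAG library left out it did not pass, nor with 20000 peaks in every list (-0.50, exact permutation p = 0.196). The ratio was -0.67 without CTCF proliferating replicate 1 and -0.31 without CTCF proliferating replicate 2. Each of these leaves 1 CTCF library in proliferating cells. The lists of CTCF were also longer. Per 10000 peaks the ratio was 0.0077 on the log2 scale. Among the sites shared by all 12 libraries, Pcdhgb4 ranked higher in all 8 STAG libraries, at percentiles 70.0 to 93.3, than in the 4 CTCF libraries, at 25.2 to 57.9. Genome-wide 11.3% of such sites did so, and 13.4% did the reverse.

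Over the cluster, 21 sites had CTCF and no STAG peak, 15 had a STAG and no CTCF peak, and 16 had both. Of the CTCF sites without STAG 17, and of the STAG sites without CTCF 10, were called in a single library. Among sites of both proliferating CTCF libraries, 2 of 15 matched no STAG1 or STAG2 library of that state, at Pcdha7 and Pcdhac1, against 24.7% genome-wide. In quiescent cells it was 1 of 11, the late Pcdhgc3 site, against 37.4%. Among sites of both quiescent STAG2 libraries 1 of 8, at Pcdhgb6, matched no CTCF, against 16.1%. In proliferating cells this held for 0 of 6, against 18.6%. No STAG1 site of both libraries lacked CTCF, with 0 of 10 against 11.0% in proliferating and 0 of 10 against 9.51% in quiescent cells.

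Of the STAG1 peaks in the cluster, 76.2% ± 13.6 (SD, n = 4) overlapped CTCF peaks of both replicates in that state, against 67.9% ± 6.40 of all STAG1 peaks. For STAG2 the shares were 67.6% ± 19.7 and 62.9% ± 3.78. Each share in the cluster rests on 10 to 20 peaks of a library, and the differences lay within the spread. The 2 quiescent STAG2 libraries, with 43.8% and 61.5%, lay below both proliferating ones, with 90.0% and 75.0%, and this difference between states was not tested. Its direction turned with 20000 peaks in every list, where the quiescent shares were 100% and 100% and the proliferating shares 66.7% and 75.0%, each over 3 or 4 peaks.

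Strong sites lay in the downstream flank. The 200 kb after the last gamma gene held 19 sites, 4 of them in all 12 libraries, and the 200 kb before Pcdha1 held 12, with 1 in all 12. The 3 flank sites of highest mean percentile were all downstream. A site from 38024731 to 38025815 had folds from 42.4 to 57.9, and the site from 38013606 to 38014465 had folds from 21.1 to 57.8. The third, from 37934714 to 37935975 at an end of Diaph1, a formin gene next to Hdac3, had folds from 17.4 to 29.7. Inside Diaph1, a site from 37883334 to 37884051 had CTCF folds of 40.1, 13.4, 26.3 and 56.5 and no STAG peak in any of the 8 libraries, and it is named after its values were seen.

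The non-clustered genes of the family varied. All 12 had a peak in at least 1 library, against 67.0% of other genes, and 5, namely Pcdh1, Pcdh7, Pcdh8, Pcdh9 and Pcdh17, had one in all 12, against 35.5%. Pcdh12 had a peak in 1 CTCF library and Pcdh11x in 3, both without STAG, Pcdh20 had a peak in 1 STAG2 library, and Pcdh10 in 4 libraries. Both STAG2 libraries had a peak at 7 of 12 in each state, against 54.7% and 54.5% of other genes, and both STAG1 libraries at 8 of 12, against 48.5% and 46.5%. For CTCF it was 8 in proliferating and 6 in quiescent cells, against 49.2% and 45.4%. With 12 genes these counts show nothing particular to the family. Of the 15 neighbouring protein-coding genes within the cluster and its flanks, 13 had a peak in at least 1 library, against 67.0% of other genes, and 2, Tmco6 and Diaph1, in all 12, against 35.5%. For 3 of the former and all 15 of the latter genes the strand was not known, and both ends were counted.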

How the data were processed

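Per the submitters' processing notes, bcl2fastq, BWA, Picard, MACS2 and HOMER were used with build mm10. Versions, the handling of reads that map to several places and what "norm" in the peak names means are not given in the sources used here. A peak list was deposited by the authors for each library, with replicates not pooled. Its fold enrichment, per the deposited files, is a ratio over the library that the peak names call input. The lists also hold −log10 p-values and −log10 q-values, and the summit offset in bases, as the deposited columns give them. All of these are the authors' own values. Folds were ranked only inside 1 list, and the cut of 5 on -log10 q was the same for all lists. Log2 folds of different lists were subtracted only for the correlations of replicates below.

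Genes came from RefSeq GRCm38.p6, and strands of other genes from its promoter table. Starts of the clustered genes were taken as the lower coordinate, since alpha and gamma genes share the higher one. Peaks that share at least 1 bp over the 12 libraries formed a site. Named sites were the 8 of highest mean percentile (0 where not called) at first exons or shared ends, those lost, gained or protein-specific, the C-type genes and Pcdhb1, the 5 highest elsewhere in the cluster and the 3 highest in the flanks. Site numbers were compared by exact permutation of libraries in Python 3.11.15 with numpy 2.4.6 and pandas 2.3.3, and the scripts were tested on simulated lists. The members and lists were chosen with earlier results of these data known. The labels give no batch. The replicate numbers pair libraries within a state across proteins: over sites of all 12 libraries, the differences of replicate 1 less replicate 2 in log2 fold correlated by 0.14 to 0.44. Between states of 1 protein the correlations were -0.08, -0.08 and -0.38. Alternatives were other list cuts, summit distances, flanks, replicate blocks and leaving out each library.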

Additional observations from a re-analysis of the deposited data

How the results depend on the processing

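For site numbers, the directions of quiescent against proliferating cells and of STAG against CTCF depended on the processing. That of STAG2 against STAG1 turned only when a library was left out. The causes were not tested. For quiescent against proliferating cells, the log2 ratio turned to 0.048 per 10000 peaks, and it ranged from -0.24 to 0.0033 without each library in turn, with the change of sign without STAG1 proliferating replicate 2. For STAG2 against STAG1 it ranged from -0.32 to 0.044, again with the change of sign without that library. For STAG against CTCF it turned to 0.0077 per 10000 peaks, ranged from -0.67 to -0.31 without each library, and passed with 200 kb on each side (-0.70) and with summits within 250 bp (-0.53). It did not pass with a -log10 q of at least 5 (-0.49) or with 20000 peaks per list (-0.50). Exchanging labels within the replicate numbers, the replicate block, left the ratios at -0.14, -0.16 and -0.51 (exact permutation p = 0.5, 0.625 and 0.0617), which changed no call. Because the CTCF replicate numbers correlated negatively between states, they were also crossed (exact permutation p = 0.656), an alternative chosen after seeing the data.

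Lost and gained sites rested on single libraries. Without each library in turn, lost sites ranged from 0 to 8 for STAG1, 2 to 5 for STAG2 and 2 to 14 for CTCF, each highest without proliferating replicate 1 of the protein. Gained sites ranged from 0 to 2 and 0 to 4 for STAG1 and CTCF, highest without quiescent replicate 1, and from 1 to 7 for STAG2, highest without quiescent replicate 2. By construction, a peak in 1 library is then enough. With a -log10 q of at least 5, STAG2 lost 1 and gained 3. With 20000 peaks per list it lost 0 and gained 0, and CTCF lost 1. With summits within 250 bp STAG1 lost 1. First exons with a peak in both libraries, with 20000 peaks per list, numbered 5 for STAG1, 3 for CTCF in proliferating cells and 3, 3 and 4 for STAG1, STAG2 and CTCF in quiescent cells. When 1 library stood for its group they ranged, for STAG1, STAG2 and CTCF in this order, from 10 to 12, 6 to 7 and 13 to 20 in proliferating cells and from 8 to 11, 10 to 12 and 10 to 11 in quiescent cells. With 20000 peaks per list the gamma shares were 26.2% for STAG1, 14.3% for STAG2 and 20.2% for CTCF, and 48.8% of the STAG1 and 85.4% of the STAG2 peaks in the cluster matched CTCF, which turned the order of the 2 proteins. Without CTCF proliferating replicate 2 the CTCF share of alpha first exons was 9.52%.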
